A study of Mus musculus with 4 samples.

Results

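Ribosomal protein genes were described in single-cell RNA of CD11b-selected cells from the mouse cortex. The rows were chosen by symbol, as those that start with Rpl or Rps and a digit and are not marked -ps, which gave 93 of 32227 gene rows. They hold 43 proteins of the large (60S) subunit, 30 proteins of the small (40S) subunit, 9 paralogues or retrocopies of these proteins, and 11 rows that share the letters but are not ribosomal proteins. The last are 10 kinases of the Rps6k family and Rps19bp1. The symbol rule misses 6 ribosomal protein genes with other names, such as Rplp0 and Rplp1, which are counted apart.

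All mice were wild type (WT) and received an adeno-associated virus into the cortex on postnatal day 0 or 1. The virus expressed either mCherry, given as mCherry-CAAX in the design text, or Hevin, a secreted protein that astrocytes make, from the astrocyte promoter GfaABC1D. Cells were taken at postnatal day 15 by magnetic selection for CD11b and made into PIPseq libraries, 2 for each virus, with actinomycin D, triptolide and anisomycin (blockers of transcription and translation) present during dissociation in both groups. The number of animals behind each library is not in the labels, so p-values measure only the spread between these libraries, which may be technical, and the altered cells were astrocytes while the cells measured were mainly macrophages.

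Each ribosome contains a single copy of most of these proteins, and their mRNAs are among the most abundant and most uniformly expressed in mammalian cells. Many begin with a run of pyrimidines at the cap, the TOP motif, through which mTOR signalling and Larp1 govern their translation. Microglia are the resident macrophages of the brain tissue, and border-associated macrophages (BAM) are those of the meninges and vessels.

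The deposited libraries held 49781430 to 67832685 UMIs (counted molecules) in 10877 to 19855 barcodes, and 10849 to 19653 cells were kept in each. The lowest UMI total of a deposited barcode differed by library, from 965 to 2993, and the median per kept cell was lower in Hevin replicate 1 than in the other 3 libraries. Any 2 libraries shared 1 to 7 cell barcodes. Cells were sorted into classes by marker genes, never by a ribosomal protein gene. Each class gate below held markers of its own list and none of another list among its top 10 genes by fold. Most of these markers also define the gates, so their presence there is no separate support for the class names. The dividing set within microglia was not part of this check. The Apoe-high gate, defined by Apoe and Ms4a7 UMIs without Sall1, held 7876 and 4728 cells of the Hevin libraries but 30 and 23 of the mCherry libraries.

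The start sites of some members are shown first, because a pyrimidine run at the start is the sequence feature these genes are known for. Each is the 30 bases from 15 before to 15 after the RefSeq start (GRCm38.p6), 5′ to 3′ on the gene's strand, with the longest run of C and T in capitals:
Rps26: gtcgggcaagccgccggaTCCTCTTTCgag
Rpl28: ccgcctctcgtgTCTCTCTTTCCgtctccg
Rps28: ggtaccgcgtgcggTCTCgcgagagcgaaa
Rps16: cccgCTTCTgtcgtgacgtagcactcaatg
Rpl38: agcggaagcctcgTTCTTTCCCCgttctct
Rpl39: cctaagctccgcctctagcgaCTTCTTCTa
Rps27: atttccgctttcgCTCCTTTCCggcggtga
Rps27l: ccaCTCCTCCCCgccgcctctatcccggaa
Rpl22: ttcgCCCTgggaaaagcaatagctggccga
Rpl22l1: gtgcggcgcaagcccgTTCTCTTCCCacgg
Rps6ka1: ggcgCCgggtgacggagcgagccgaagtgc
The Rps26 stretch lies at chr10:128626492-128626521 (minus strand) and the Rpl38 stretch at chr11:114668565-114668594 (plus strand). Start sites of 72 of the 93 members were in the RefSeq table. A run of at least 8 pyrimidines was present in the 30 bases of 22 of 54 subunit proteins (40.7%), against 2050 of 17491 protein-coding genes (11.7%). The median longest run was 6.5 bases in the subunit proteins and 4 in protein-coding genes. Runs differ among the members shown, from 11 bases in Rpl28 to 4 in Rps28 and Rpl22, and the kinase Rps6ka1 has a longest run of 2 bases. Runs were counted anywhere in the 30 bases. In Rps16, Rpl22 and Rps27l the longest run lies wholly before the start, and in Rpl39 wholly after it. A run in these letters is a description and not a shown TOP site, and a start placed a few bases off would move it.

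Ribosomal protein rows held a larger part of the RNA in the Hevin libraries than in the mCherry libraries. Over all kept cells they took 10.0% and 10.4% of UMIs with mCherry but 14.1% and 13.1% with Hevin, a mean of 10.2% ± 0.246 against 13.6% ± 0.750 (SD, n = 2 each). The groups did not overlap. The difference was 3.39 percentage points (exact two-sided permutation p = 0.33, the smallest that 2 against 2 libraries allows). In bulk sums of this kind, a larger share within cells and more cells that are rich in these rows cannot be told apart. The shares within single classes are therefore given next. Cells in no gate are not part of these values. They were 1.03% and 0.857% of kept cells with mCherry and 14.1% and 8.31% with Hevin. The rows took 13.3% and 14.6% of their UMIs with mCherry and 15.7% and 15.2% with Hevin. A share is not an amount of RNA per cell, and differences in that amount were not tested.

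Within each class the difference had the same direction and was smaller, from 0.559 percentage points in astrocytes and 1.66 in microglia to 2.40 in MHC class II cells. In the microglia gate the share was 9.97% and 10.3% with mCherry, against 12.1% and 11.5% with Hevin. Border-associated macrophages were at 8.74% and 8.95% with mCherry and at 10.9% and 9.95% with Hevin. Cells of the MHC class II gate, which express at least 3 of H2-Aa, H2-Ab1, H2-Eb1 and Cd74, were at 15.9% and 15.5% with mCherry and at 18.2% and 17.9% with Hevin. The order of the classes was the same in every library: astrocytes at the bottom (4.27% to 5.20%), then border-associated macrophages, microglia, endothelial cells (12.3% to 13.9%), Apoe-high cells (13.3% to 15.5%) and MHC class II cells. The Hevin libraries lay above the mCherry libraries in all 7 cell sets tested, each with an exact permutation p of 0.33, also after adjustment over the 7.

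**Figure D1:**
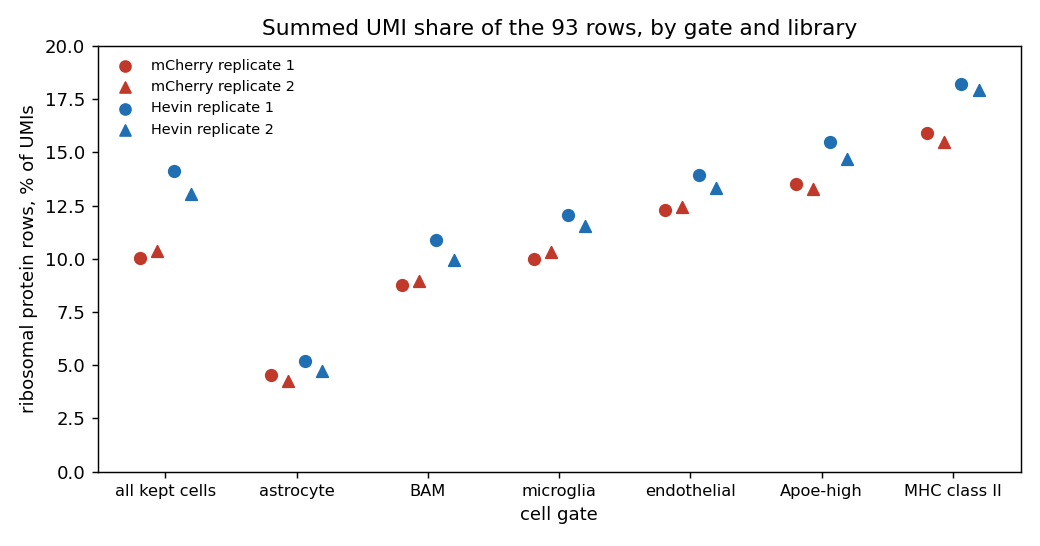
Share of UMIs in the 93 ribosomal protein rows (vertical axis, %) for all kept cells and 6 marker gates; each point is 1 library, red for mCherry and blue for Hevin. In every gate both Hevin points lie above both mCherry points, and the gates keep the same order in each library, from astrocytes (4.27% to 5.20%) to MHC class II cells (15.5% to 18.2%).

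Transcripts that mark other cell classes differed between the groups inside a gate, and depth differed between the libraries. In endothelial cells, which should lack it, Apoe stood at 927 and 677 CPM (UMIs of a row relative to all UMIs of the same cells) with mCherry but at 3713 and 2386 CPM with Hevin, and the microglial gene P2ry12 at 818 and 679 against 353 and 283 CPM. Summed over the 8 microglial markers, endothelial cells held 3619 to 4219 CPM with mCherry and 1797 to 2407 CPM with Hevin. Inside the microglia gate, which admits Apoe under 150 per 10000 UMIs, Apoe was at 1587 and 1330 CPM with mCherry and at 4911 and 3431 CPM with Hevin. Free RNA was not measured. Whether these transcripts came from free RNA, from doublets or from the gated cells themselves was not tested. Their part in the differences within gates was not tested either. Deeper microglia of a library mostly gave a larger share: in Hevin replicate 1 it went from 11.1% at 500 to 2000 UMIs to 13.7% at 6000 to 10000, and in mCherry replicate 1 from 9.61% at 2000 to 3000 UMIs to 10.8% at 6000 to 10000. In mCherry replicate 2 it was 10.6% in 39 microglia of 2000 to 3000 UMIs and 9.99% at 3000 to 4000. Border-associated macrophages of Hevin replicate 1 showed no such steady order, at 11.3% at 500 to 2000 UMIs, 10.3% at 3000 to 4000 and 11.9% at 6000 to 10000. Those of mCherry replicate 2 rose from 8.16% at 3000 to 4000 UMIs through 8.73% to 9.55% at 6000 to 10000. In every library the share of this class was higher at 6000 to 10000 UMIs than at 3000 to 4000. At a matched depth of 3000 to 6000 UMIs, microglia differed by 2.10 percentage points between the groups, against 1.66 over all depths.

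**Figure D2:**
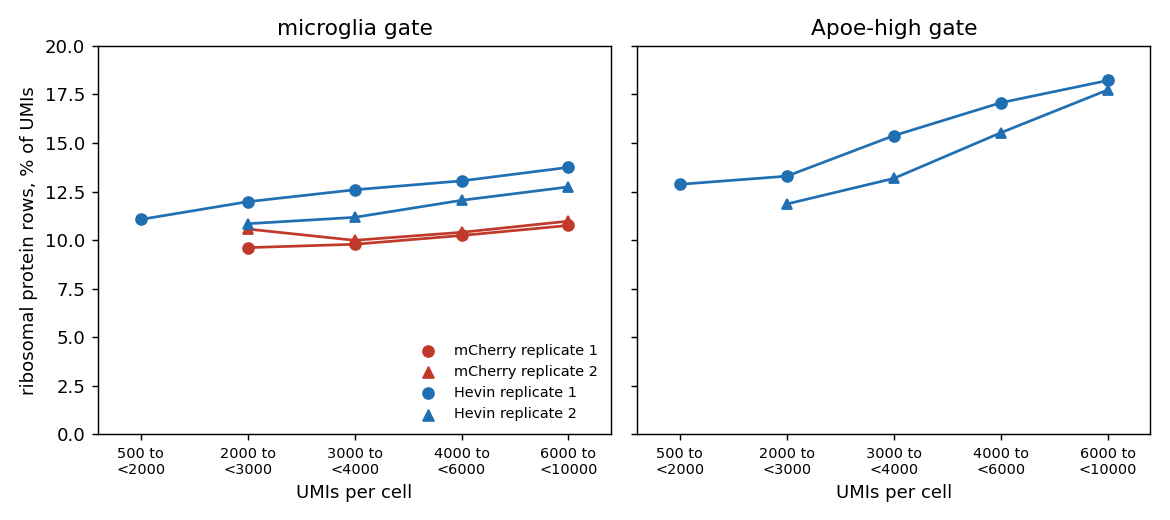
Share of UMIs in the ribosomal protein rows (vertical axis, %) by UMIs per cell (horizontal axis, ranges of at least 20 cells), for microglia and Apoe-high cells, 1 line per library. In microglia both Hevin lines lie above both mCherry lines in each range they share, and in Apoe-high cells of Hevin replicate 1 the share climbs from 12.9% to 18.2%.

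Single cells spread widely around these values. The median microglial cell gave 9.57% and 9.87% of its UMIs to the rows with mCherry and 11.4% and 10.98% with Hevin, while the 5th to 95th percentile ran from 6.48% to 14.2% in mCherry replicate 1 and from 6.79% to 17.3% in Hevin replicate 1. When each microglial cell was thinned to 1000 UMIs, which left out 140 cells of Hevin replicate 1 and none of the other libraries, a median of 51 and 52 of the 93 rows was detected in mCherry microglia and of 55 and 54 in Hevin microglia. Unthinned, the medians were 74 and 76 against 70 and 75. Thinned microglia of the Hevin libraries thus showed slightly more of the rows, and unthinned microglia did not. Thinned border-associated macrophages, Apoe-high and MHC class II cells had the same direction. Endothelial cells (56 and 57 with mCherry, 58 and 57 with Hevin) and astrocytes (31 and 32.5 against 33 and 25.5) did not separate.

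Row by row, 67 of the 91 tested members rose with Hevin over all kept cells and 1 fell (edgeR quasi-likelihood test, Benjamini-Hochberg adjusted p below 0.05), where 6.85% of all 19119 genes tested rose and 4.3% fell. The rise was shared by both subunits: 36 of 43 large-subunit and 27 of 30 small-subunit proteins rose and none fell. Their median log2 fold change was 0.51, with a range of 0.27 to 0.76, against 0.00 for all genes tested. All 73 subunit proteins were higher in both Hevin libraries than in both mCherry libraries, as were 27.6% of all genes. The count of members that rose was 12 without mCherry replicate 1 and 36 without mCherry replicate 2, where 5.32% and 5.35% of genes rose, and 5 with cells of 3000 to 6000 UMIs only, where 3.66% of genes rose.

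Rps26, a small-subunit protein near the mRNA exit channel (chr10:128624534-128626747, mm10), showed the largest log2 change of the subunit proteins. It stood at 1364 and 1578 CPM with mCherry but at 2456 and 2152 CPM with Hevin, a log2 fold change of 0.76 ± 0.12 (SE, edgeR adjusted p = 0.011). Rps29, a small zinc-binding protein, went from 4813 and 5595 CPM to 8053 and 7466 CPM (0.69 ± 0.12, edgeR adjusted p = 0.014). For both genes the 2 groups were well apart, although the mCherry replicates differed from each other as well. Rpl28 of the large subunit rose by 0.69 ± 0.11, Rps28 by 0.68 ± 0.10 and Rps16 by 0.68 ± 0.11 on the log2 scale. Rpl39, which lines the exit tunnel, rose by 0.67, Rps4x by 0.56, Rpl10 by 0.56, Rpl38 by 0.55 and Rpl36a by 0.54. Rpl11, which with Rpl5 and the 5S RNA can bind Mdm2, rose by 0.52. Rpl5 itself was 0.41 higher without passing (adjusted p = 0.075), Rps6, the substrate of the S6 kinases, 0.31 higher (adjusted p = 0.065) and Rpl13a 0.32 higher (adjusted p = 0.086, all edgeR).

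The paralogues did not move as 1 group. Rps27l, a paralogue of Rps27 known as a p53 target, rose by 0.48 and Rps27 by 0.48. Rpl22l1 rose by 0.58 and Rpl22, the protein that represses its expression, by 0.66. Rpl36al rose by 0.42, Rpl7 by 0.41 and Rpl3 by 0.37, whereas Rpl7l1 was 0.10 lower without passing (adjusted p = 0.46). Rpl39l, a paralogue known from male germ cells, fell: it was at 3.87 and 3.0 CPM with mCherry and at 1.61 and 1.43 CPM with Hevin (log2 fold change -1.06 ± 0.21, edgeR adjusted p = 0.023), from 575 UMIs in all. It did not pass without mCherry replicate 1 (-0.87, edgeR adjusted p = 0.070) or with cells of 3000 to 6000 UMIs only (-1.30, edgeR adjusted p = 0.068). Its ubiquitous counterpart Rpl39 went the other way. Rpl10l (6 UMIs) and Rpl3l (39 UMIs) were too rare to test, and Rps4l was not analysed here.

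None of the 11 rows that are not ribosomal proteins passed, with log2 fold changes from -0.31 to 0.21. At the low end was Rps6ka1, a kinase downstream of ERK (252 and 256 CPM with mCherry, 177 and 201 CPM with Hevin, adjusted p = 0.071). The next were Rps6ka4 (-0.21), Rps6ka2 (-0.21), Rps6kc1 (-0.19) and Rps6kb2 (-0.13). Rps6kb1 (-0.03), Rps6ka6 (-0.05), Rps6ka5 (0.02), Rps6ka3 (0.03), Rps19bp1 (0.11) and Rps6kl1 (0.21) had edgeR adjusted p from 0.43 to 0.95. Over the 11 rows the median was -0.05.

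**Figure D3:**
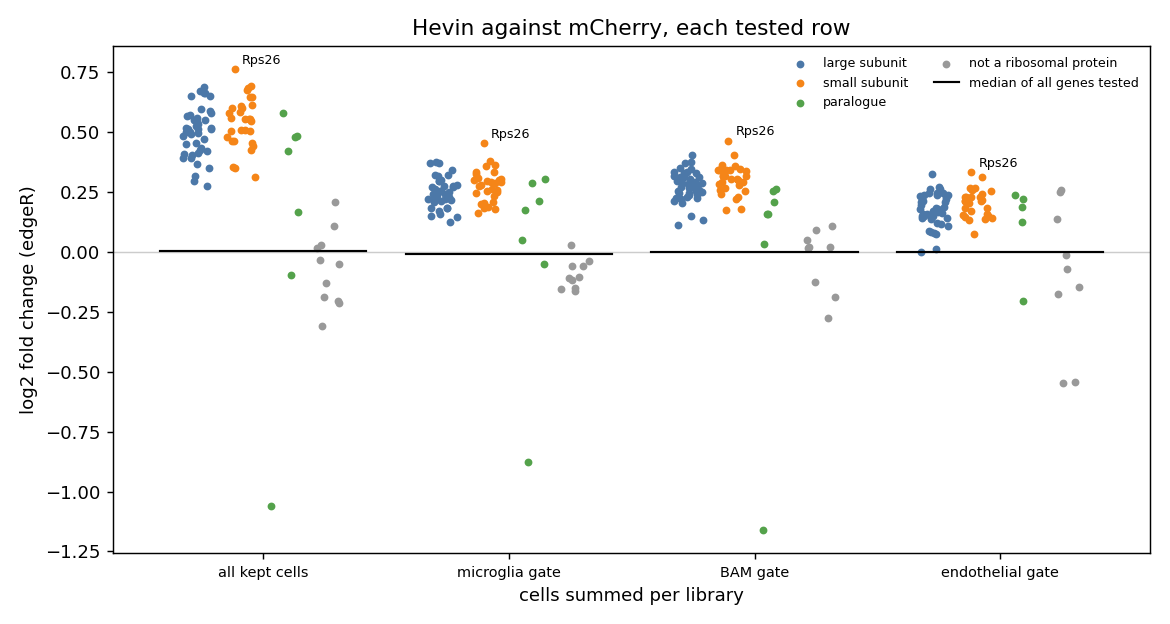
Log2 fold change of Hevin against mCherry (vertical axis, edgeR) for each tested row in 4 sets of cells; colours give the kind of row and the black line the median of all genes tested. The subunit proteins lie between 0.27 and 0.76 over all kept cells and nearer to 0 in the gates, with Rps26 at the top of the small subunit in each.

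Within microglia the same direction was seen at a smaller size, and no member passed. The median log2 fold change of the subunit proteins was 0.26 (range 0.12 to 0.46), and all 73 were higher in both Hevin libraries, as were 17.4% of the 17152 genes tested. No member and no gene at all (0%) had an adjusted p below 0.05 with edgeR, while 64 of 90 members had an unadjusted p below 0.05, as did 6.19% of all genes. DESeq2 called 15 members, where it called 1.05% of genes, and the fit with the replicate block called 46 higher and 1 lower, where it called 4.94% of genes. On simulated data for this comparison, of 17139 genes, 16% of changes of 0.5 on the log2 scale were recovered and 88% of changes of 1. Rps26 was at 1338 and 1548 CPM with mCherry and at 2017 and 1814 CPM with Hevin (0.46 ± 0.11, edgeR adjusted p = 0.38). Rpl22l1 (0.29), Rps28 (0.32), Rpl10a (0.30) and Rpl23 (0.32) had the other smallest p-values, with edgeR adjusted p from 0.37 to 0.45.

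The 2 other classes gave like values. In border-associated macrophages the median over the subunit proteins was 0.29 (range 0.11 to 0.47), all 73 were higher in both Hevin libraries, as were 18% of 12426 genes, and no member passed with edgeR where 0.451% of genes did. At an unadjusted p below 0.05 there were 64 of 89 members and 8.31% of genes, with DESeq2 1 member and 0.579% of genes, and with the replicate block 19 members and 3.25% of genes. Rps26 (0.47), Rps16 (0.41), Rpl10a (0.35), Rps13 (0.36) and Rps18 (0.34) had the smallest p-values there. In endothelial cells, which are not myeloid, the median was 0.19, 65 of 73 were higher in both Hevin libraries, as were 17.2% of 10654 genes, and no member passed with edgeR where 0.469% of genes did. At an unadjusted p below 0.05 there were 25 of 87 members and 6.73% of genes, with DESeq2 0 members and 0.3% of genes, and with the replicate block 3 members and 2.45% of genes. Without Hevin replicate 2 there were 4 members. Rps26 led again, from 1787 and 2017 CPM to 2421 and 2199 CPM (0.33 ± 0.10, edgeR adjusted p = 0.33), with Rpl39 (0.33), Rps21 (0.31) and Rps16 (0.27), and Rps6ka1 was 0.54 lower (adjusted p = 0.40). Whether Hevin moved the members more in border-associated macrophages than in microglia was tested directly: 0 of 89 members passed with edgeR, where 0.124% of genes did, 0 had an unadjusted p below 0.05, and the median difference was 0.04.

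No subunit protein passed the test in its proportion within the pool. With libraries scaled to their summed ribosomal protein UMIs, 0 of 73 subunit proteins passed between Hevin and mCherry in microglia and 0 over all kept cells (edgeR). At an unadjusted p below 0.05 there were 0 and 1. Of all genes 0.268% and 57.9% passed, but the scaling itself moved their median log2 fold change to -0.275 and -0.527. These shares of all genes are therefore no measure for the members. The subunit proteins then ranged from -0.26 to 0.23 on the log2 scale over all kept cells. The 11 members that did fall relative to the pool over all kept cells were 9 of the rows that are not ribosomal proteins, Rpl39l (-1.60) and Rpl7l1 (-0.63). Of these only Rpl39l had passed in the fit above that was not scaled to the pool. All genes shifted down with this scaling, and the other falls are no separate result.

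Apoe-high cells gave a larger share of UMIs to the rows than microglia of the same libraries. Of the 90 members tested 72 rose and 5 fell, where 20.3% of 15444 genes rose and 18.3% fell. Of the subunit proteins 68 of 73 rose and none fell, with a median log2 fold change of 0.41 (range 0.14 to 0.69). With the Hevin libraries only, which hold nearly all of these cells, 78 members rose and 5 fell. Of all genes 21.8% rose and 18.9% fell in that fit. The member counts were 49 and 1 without Hevin replicate 1, where 6.45% of all genes rose and 6.96% fell. Without Hevin replicate 2 they were 38 and 1, where 5.03% of all genes rose and 5.74% fell. At equal depth Apoe-high cells of the Hevin libraries also lay above microglia, by a gap that differed with depth. At 2000 to 3000 UMIs they gave 13.3% and 11.9% of UMIs to the rows, and microglia 11.98% and 10.8%. At 6000 to 10000 UMIs the shares were 18.2% and 17.7% against 13.7% and 12.7%.

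Among the subunit proteins with the largest change were Rps28 (0.69 ± 0.07), Rps29 (0.65 ± 0.08), Rpl32 (0.65 ± 0.07) and Rpl38 (0.63 ± 0.07). Rps28 was at 2334, 2286, 2854 and 2745 CPM in microglia of mCherry replicates 1 and 2 and Hevin replicates 1 and 2, and at 4069, 3821, 4144 and 4025 CPM in Apoe-high cells. The classes did not overlap. Rps6 was 0.14 higher and did not pass (edgeR adjusted p = 0.15), and Rpl13a was 0.17 higher (adjusted p = 0.061). Relative to the pool, with the library as a block, 9 of 73 subunit proteins rose and 12 fell. Rps28 rose by 0.27 and Rps29 by 0.23, and Rps6 fell by 0.30 and Rpl13a by 0.25. Of all genes 6.81% rose and 61% fell, but the scaling moved their median to -0.438, so these shares are no measure for the members. Over all members the counts were 10 higher and 23 lower, and they dropped to 3 and 9 without Hevin replicate 1 and to 2 and 11 without Hevin replicate 2. The kinase Rps6ka1 fell by 0.53 (282, 287, 245 and 267 CPM in microglia, 206, 189, 159 and 173 CPM in Apoe-high cells), Rps6ka2 by 0.53, Rps6kc1 by 0.37 and Rps6ka4 by 0.23, and the paralogue Rpl39l fell by 0.71.

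MHC class II cells held the highest ribosomal protein share of the gates, and all 73 subunit proteins rose in them against microglia. Over all members 80 of 89 rose and 2 fell, where 24.8% of 13785 genes rose and 24.3% fell. The median of the subunit proteins was 0.72 (range 0.34 to 1.42). Rpl38 led (1.42 ± 0.05), before Rpl28 (1.29), Rpl36 (1.25) and Rps24 (1.21). Rps29, among the most changed in Apoe-high cells, rose by 0.37 here. Rps6ka2 rose by 1.63 and Rps6ka3 by 1.19, both kinases of the RSK family, Rps6ka4 rose by 0.96, and Rps6ka1 fell by 0.89 and the S6 kinase gene Rps6kb1 by 0.43.

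Border-associated macrophages gave a smaller share of UMIs to the rows than microglia of the same libraries. They were deeper, with medians of 2744 to 4803 UMIs per cell against 2064 to 3957. The share therefore does not give the amount per cell. Of 89 members 73 fell and 4 rose, where 30.3% of 14477 genes fell and 28.1% rose. Of the subunit proteins 66 of 73 fell, with a median of -0.40. Rps6 fell by 0.70 ± 0.04, from 741, 698, 788 and 796 CPM in microglia to 505, 468, 567 and 526 CPM, followed by Rpl21 (-0.69), Rps15a (-0.65) and Rpl15 (-0.64). The 4 members that rose were Rpl38 (0.29), Rps29 (0.16), Rps27l (0.29) and Rps6ka3 (0.30). Rps28 fell by 0.11 and stood at 0.037 with total-count scaling. The kinase Rps6ka1 fell by 1.27.

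Endothelial cells gave a larger share of UMIs to the rows than microglia in every library, and single members differed in both directions. Of 90 members 37 rose and 18 fell, where 31.2% of 14508 genes rose and 34.5% fell. The split was 54 and 9 with total-count scaling, where 35.7% of genes rose and 29.5% fell. With every gene of any count it was 24 and 24, where 15.5% of genes rose and 22% fell. The median over the members, 0.07 on the log2 scale, was -0.034 with every gene of any count. Rpl38 stood apart. Rpl38 (chr11:114668524-114672331, mm10), a protein known for its role in the translation of Hox mRNAs, was at 1092, 1104, 1347 and 1271 CPM in microglia and at 4556, 4549, 4904 and 4370 CPM in endothelial cells. The lowest endothelial library was above the highest microglial library by a wide gap, and the log2 fold change was 1.81 ± 0.06 (edgeR adjusted p = 1.9e-09), against 0.62 for Rps7 and 0.59 for Rps20. Rps29 fell by 0.59, from 4747 to 6316 CPM in microglia to 3592 to 4654 CPM.

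Among the ribosomal proteins, the paralogues Rpl22l1 and Rps27l rose most in endothelial cells after Rpl38. Rpl22l1 was at 143, 142, 175 and 162 CPM in microglia and at 352, 327, 386 and 387 CPM in endothelial cells (1.09 ± 0.06, edgeR adjusted p = 6.1e-08), while Rpl22 rose by 0.30. Rps27l rose by 1.00 ± 0.07, while Rps27 was at -0.01 ± 0.05. The kinases Rps6ka1 (-2.40), Rps6kc1 (-1.52), Rps6ka5 (-1.0) and Rps6ka4 (-0.50) fell. Rps6kl1, a kinase-like gene, rose by 4.14 ± 0.40 (edgeR adjusted p = 4.8e-06): it was at 3.89, 3.16, 4.60 and 6.91 CPM in endothelial cells and at 0.145, 0.197, 0.422 and 0.230 CPM in microglia. This rests on few molecules, 92 UMIs over all kept cells, and 1 library of MHC class II cells stood at 6.57 CPM.

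**Figure D4:**
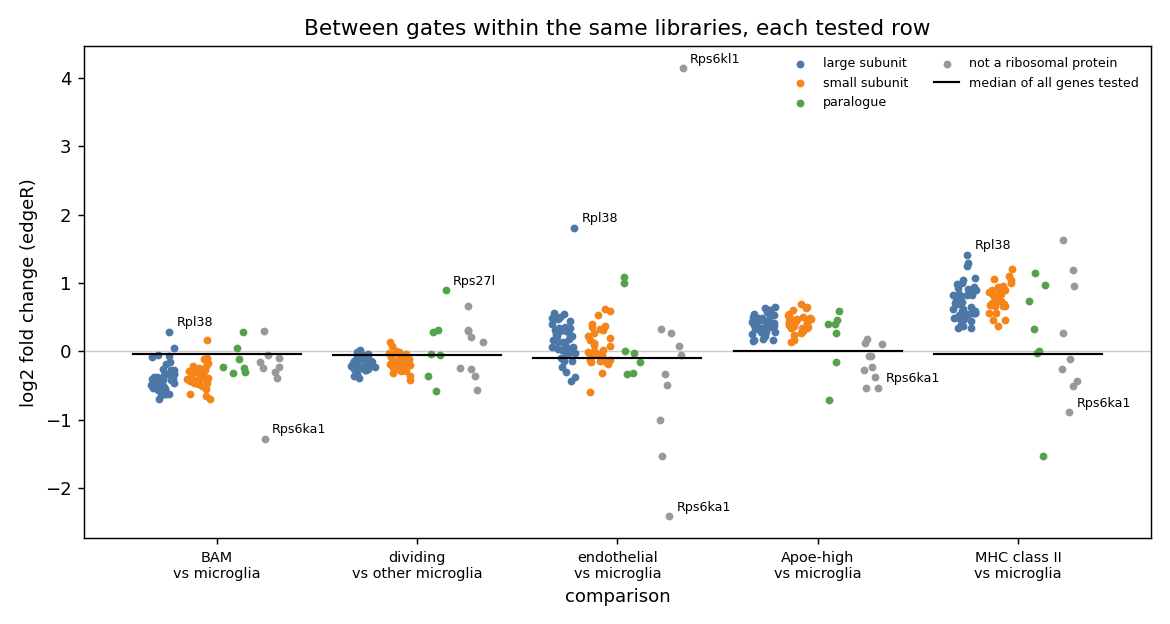
Log2 fold change (vertical axis, edgeR with the library as a block) of each tested row between gates of the same 4 libraries; colours give the kind of row and black lines the median of all genes tested. The subunit proteins lie low in border-associated macrophages and high in Apoe-high and MHC class II cells, and Rpl38, at 1.81 in endothelial cells, stands apart from the other subunit proteins there.

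In the main fit, with TMM scaling, most ribosomal protein mRNAs were slightly lower in dividing microglia than in other microglia. Cells with UMIs of at least 2 division markers were taken as dividing. Of 89 members 46 fell and 4 rose, where 11.4% of 13367 genes fell and 11% rose. With total-count scaling, which is relative to all RNA of the cells, 30 fell and 5 rose, where 8.24% of genes fell and 12.8% rose. The median of the subunit proteins was -0.14, against -0.06 for all genes tested. Dividing cells were deeper, with a mean of 3595 to 5497 UMIs per cell against 2284 to 4254 in the others. Rps27l (chr9:66946086-66949516, mm10) went against the set: it was at 188, 168, 230 and 197 CPM in other microglia and at 366, 386, 416 and 327 CPM in dividing ones (0.89 ± 0.06, edgeR adjusted p = 8.4e-30), with no overlap. Rps27 fell by 0.41 and its retrocopy Rps27rt by 0.36, Rpl10 by 0.39 and Rpl34 by 0.36. Rpl22l1 rose by 0.31 while Rpl22 fell by 0.15, Rps2 rose by 0.13 and the kinase Rps6ka5 by 0.67.

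**Figure D5:**
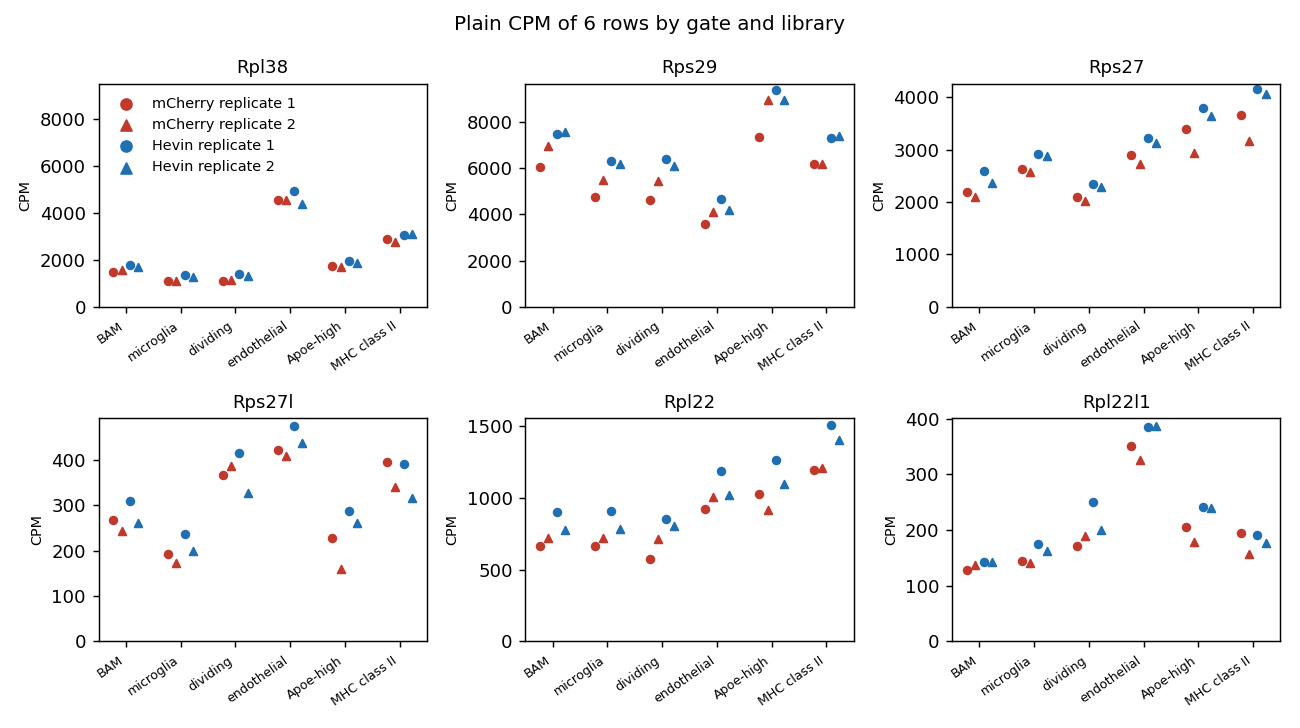
Plain CPM (vertical axis, from 0, UMIs of the row relative to all UMIs of the gate) of Rpl38, Rps29, Rps27, Rps27l, Rpl22 and Rpl22l1 in 6 gates, 1 point per library. Rpl38 is at 4370 to 4904 CPM in endothelial cells and at 1092 to 1347 CPM in microglia, and Rps27l is higher in dividing cells than in the microglia gate while Rps27 is lower.

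Genes that work with the ribosome were counted from lists. The 6 ribosomal protein genes that the symbol rule misses all rose over all kept cells (median 0.53), as did 7 of 16 other translation genes of the TOP class, among them Tpt1 (0.70). Of 13 initiation factors 1 rose, of 25 ribosome biogenesis genes 1 rose and 2 fell, of 78 mitochondrial ribosomal proteins 8 rose and 1 fell, and of 7 regulators such as Mtor, Larp1 and Tsc1 none passed. The shares of these last lists lie near those of all genes, of which 6.85% rose and 4.3% fell. Rplp1, a stalk protein, rose by 0.93 over all kept cells, by 0.64 in border-associated macrophages and by 0.52 in endothelial cells. Within these gates, 1 of the 6 missed genes rose in border-associated macrophages, 1 in endothelial cells and 0 in microglia. The shares of all genes that rose there were 0.169%, 0.235% and 0%, and the list medians were 0.30, 0.23 and 0.26. In MHC class II cells all 6 missed genes and all 16 TOP-class genes rose against microglia, as did 11 of 25 biogenesis genes and 24.8% of all genes. In Apoe-high cells 6 of 6 and 15 of 16 rose, and 3 of 25 biogenesis genes rose and 7 fell, where 20.3% of all genes rose and 18.3% fell. In dividing microglia 5 of 25 biogenesis genes rose, among them Nop56 (0.92) and Nop58 (0.88), and 2 fell, with a list median of 0.016. Of 78 mitochondrial ribosomal proteins 17 rose, where 11% of all genes did. Of 73 cytosolic subunit proteins 43 fell and 1 rose, where 11.4% of all genes fell.

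Counts of single members are uncertain where copies exist. In the last 300 bases of their GENCODE M21 transcripts, 65 of 73 subunit proteins share at least 1 stretch of 60 bases with another annotated gene, and 35 share over 50% of such stretches. The shared share was 54.8% for Rpl38, 56.8% for Rps26, 46.5% for Rps29, 56.3% for Rps27 and 88.0% for Rps27rt, whose list of sharing genes includes Rps27, but 11% for Rps27l and 0% for Rps6ka1. How reads that fit several copies were counted is not given in the sources used here. Across the 73 subunit proteins the log2 fold change over all kept cells had a Spearman rho of -0.19 with this shared share, -0.27 with transcript length and 0.29 with level, and across the 54 with a start site -0.15 with the pyrimidine run. These are descriptions across genes of the same libraries, which are not independent.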

How the data were processed

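Single-cell RNA of 4 libraries was analysed from UMI counts by gene and cell barcode, which the authors deposited without normalization. Per the submitters' processing notes the reads were handled with mm10. Aligner, counter, annotation and strand use: not given in the sources used here. Kept barcodes had 500 or more UMIs, 300 or more genes and no more than 10% mitochondrial UMIs. Gates used marker UMIs per 10000: a non-microglial class needed at least 3 markers and 50 per 10000, BAM at least 2 of 4 markers and 10 per 10000, microglia Apoe under 150 and P2ry12 of at least 10, and Apoe-high cells Apoe of at least 150 with Ms4a7 and no Sall1. Barcodes in 2 gates were left out. Scrublet (scanpy 1.11.5) called 0.0168% and 0.0184% of cells in the mCherry libraries, where it did not work, so its calls were not used.

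Counts were summed per library and gate and tested with edgeR 4.0.16 (filterByExpr, TMM, quasi-likelihood; library as a block between gates), adjusted over all genes tested. Fold changes come from these fits, and levels are plain CPM. DESeq2 1.42.0, other filters, scalings, gates and depths, and leaving out each library were alternatives. The fits were tested on simulated data. Members, lists and gates were chosen with earlier results of these data known. The text names, in each comparison, the 5 highest and the 5 lowest members by log2 fold change among those that passed with at least 10 CPM and no overlap (or up to 5 of smallest p), and a set kept for every comparison: Rps6, Rpl5, Rpl11, Rpl13a, Rpl38, Rps28, the paralogue pairs and the rows that are not ribosomal proteins. The whole of that set is valued over all kept cells. Elsewhere those of its members near 0 are given by their part in the counts and, where their sign depends on the processing, in the closing section. Other genes named were chosen after their values were seen. Some genes that the rule names are not reported here. Sequences are from RefSeq.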

Additional observations from a re-analysis of the deposited data

Results flagged for a closer look

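Rows marked -ps, which the symbol rule leaves out and no comparison used, held more of the UMIs in the Hevin libraries (0.151% and 0.142%) than in the mCherry libraries (0.110% and 0.107%). They are 7 rows, most of them named as pseudogenes of ribosomal proteins. Their counts may share reads with the genes they copy, which was not tested.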

How the results depend on the processing

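With edgeR between the viruses, over all kept cells 67 members rose and 1 fell, where 6.85% of all genes rose and 4.3% fell. With total counts only the counts were 50 and 2 (4.89% and 7.67% of genes), and with DESeq2 77 and 2 (7.35% and 5.64%). With every gene of any count they were 72 and 2 (5.26% and 3.94%). The replicate block gave 77 and 4 (12.7% and 11%), and cells of 3000 to 6000 UMIs gave 5 and 0 (3.66% and 1.13%). Leaving out 1 library gave 12 to 73 that rose and 0 to 2 that fell. In the microglia gate, where none passed, 15 rose with DESeq2 (0.81% of genes) and 6 with every gene of any count (0.87%). With the replicate block 46 rose and 1 fell, where 3.15% of genes rose and 1.79% fell. In border-associated macrophages 1 rose with DESeq2 (0.225% of genes) and 6 with every gene of any count (0.593%). There 19 rose with the replicate block (1.52%) and 1 with cells of 3000 to 6000 UMIs (0.281%). In endothelial cells 3 rose with the replicate block and 0 to 4 when 1 library was left out. Of all genes in endothelial cells 0.995% rose with the replicate block. The labels number the replicates without saying what a number shares. The replicate-1 libraries deviated together (correlation across genes 0.357 over all kept cells, 0.457 in microglia, 0.272 in border-associated macrophages and 0.200 in endothelial cells), but with 2 pairs the numbers were not taken to pair the libraries. The share difference was 4.18 percentage points over all kept cells of at least 3000 UMIs, against 3.39. In microglia it was 2.14 with that minimum and 2.10 at 3000 to 6000 UMIs, against 1.66. It ran from 2.86 to 3.92 and from 1.40 to 1.93 when 1 library was left out.

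Between gates, Apoe-high cells had 5 members that fell, where 18.3% of genes fell, but 1 with DESeq2 (7.04% of genes). There were 3 each with every gene of any count (9.93%), cells of at least 3000 UMIs (18.1%) and cells of 3000 to 6000 UMIs (19%). Leaving out 1 library gave 38 to 78 that rose and 1 to 5 that fell. Of all genes 5.03% to 20.9% rose and 5.74% to 18.5% fell in those fits. In border-associated macrophages 7 rose with total counts only (37.1% of genes), against 4 (28.1%). In endothelial cells 9 fell with total counts only (29.5% of genes) and 11 with DESeq2 (29.9%), against 18 (34.5%). With every gene of any count 24 rose (15.5%), against 37 (31.2%). Leaving out 1 library gave 11 to 14 that fell, where 30.7% to 32.5% of genes fell. In MHC class II cells 4 fell with total counts only (29.7% of genes) and 5 with every gene of any count (15.8%), against 2 (24.3%). When 1 library was left out 1 to 3 fell (20.7% to 21.6%). In dividing microglia 30 fell with total counts only (8.24% of genes), against 46 (11.4%). With cells of 3000 to 6000 UMIs 2 rose (8.21%), against 4 (11%). Relative to the pool, 10 members fell in microglia with the replicate block, and 0 to 5 when 1 library was left out. Over all kept cells 0 to 2 rose relative to the pool when 1 library was left out, and in Apoe-high cells 2 to 11 rose and 9 to 25 fell. The cause of these differences was not tested.

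Scaling to total counts moved the median of all genes between the viruses by -0.117 on the log2 scale over all kept cells. Of 379 named log2 fold changes, 64 changed sign under at least 1 alternative, in 140 of 4102 values. Of these 64 only Rps28 in border-associated macrophages had passed the test, and their largest size was 0.318. The cause was not tested. All values with the other sign follow. Over all kept cells between the viruses, Rps6ka5 was -0.098, Rps19bp1 -0.0069 and Rps6ka3 -0.089 with total counts only. Rps6ka5 was -0.082 with cells of at least 3000 UMIs. Rps6kl1 was -0.028 and Rps6ka5 -0.14 with cells of 3000 to 6000 UMIs. Rps6kl1 ran from -0.13 to 0.58, Rps6ka5 from -0.099 to 0.13, Rps6kb1 from -0.091 to 0.024, Rps6ka6 from -0.28 to 0.15 and Rps6ka3 from -0.026 to 0.080 when 1 library was left out. In the microglia gate between the viruses, Rps19bp1 was -0.017 with total counts only. Rps6ka6 was 0.025 with cells of at least 3000 UMIs. Rpl7l1 ran from -0.12 to 0.029, Rps6kc1 from -0.15 to 0.039 and Rps19bp1 from -0.026 to 0.090 when 1 library was left out. In border-associated macrophages between the viruses, Rpl7l1 was -0.021, Rps6ka5 -0.034, Rps6ka2 -0.0014, Rps6ka4 -0.036 and Rps6ka3 -0.033 with total counts only. Rps6ka4 was -0.00073 with every gene of any count. Rps6ka5 was -0.041 with cells of at least 3000 UMIs. Rps6ka3 was -0.022 with cells of at most 5% mitochondrial UMIs. Rps6ka2 was -0.012 without the top 5% of doublet scores. Rps6ka5 was -0.17 and Rps6ka4 -0.14 with cells of 3000 to 6000 UMIs. Rps6kc1 ran from -0.069 to 0.25, Rps6ka2 from -0.079 to 0.18, Rps6ka4 from -0.18 to 0.20, Rps6ka3 from -0.037 to 0.088, Rpl7l1 from -0.030 to 0.10 and Rps6ka5 from -0.032 to 0.081 when 1 library was left out. In endothelial cells between the viruses, Rpl3 was 0.0075 with DESeq2. Rpl3 was 0.017 and Rps6kb2 0.026 with cells of at least 3000 UMIs. Rps6kb2 was 0.023 with cells of at most 5% mitochondrial UMIs. Rpl3 was 0.0079 without the top 5% of doublet scores. Rpl3 was 2.3e-05 with the replicate block. Rpl13a was -0.0082, Rpl3 0.0089 and Rps19bp1 0.26 with cells of 3000 to 6000 UMIs. Rpl3 ran from -0.035 to 0.034, Rps6kb1 from -0.012 to 0.34, Rps6ka5 from -0.0036 to 0.67, Rps6kb2 from -0.22 to 0.18, Rpl38 from -0.031 to 0.19, Rps6ka4 from -0.31 to 0.13 and Rps19bp1 from -0.41 to 0.042 when 1 library was left out. In Apoe-high cells against microglia, Rps6ka6 was 0.12 with DESeq2. Rps6ka3 ran from -0.063 to 0.12 when 1 library was left out. In border-associated macrophages against microglia, Rps28 was 0.037, Rpl7l1 0.037, Rps6kc1 0.10 and Rps6ka4 0.058 with total counts only. Rpl36al was -0.020 with every gene of any count. Rps6kc1 ran from -0.11 to 0.020, Rps6ka4 from -0.17 to 0.015 and Rpl39l from -0.36 to 0.0058 when 1 library was left out. In endothelial cells against microglia, Rpl5 was 0.11, Rpl11 0.11, Rps28 0.11, Rps27 0.12, Rpl36al 0.11 and Rps6ka3 0.078 with total counts only. Rpl5 was 0.0074, Rpl11 0.0088, Rps28 0.0085, Rps27 0.016 and Rpl36al 0.0034 with DESeq2. The median of the members was -0.034, Rpl13a -0.067, Rpl3 -0.026, Rps4x -0.13 and Rps6kb1 -0.049 with every gene of any count. Rpl5 was 0.0048, Rpl11 0.0062, Rps28 0.0060, Rps27 0.013 and Rpl36al 0.00068 with genes of at least 10 CPM. Rpl39l was 0.030 and Rps4x -0.019 with cells of at least 3000 UMIs. Rpl11 was 0.018, Rps28 0.019, Rps27 0.010 and Rpl36al 0.0061 with cells of at most 5% mitochondrial UMIs. Rpl39l ran from -1.09 to 0.24, Rps4x from -0.0054 to 0.023, Rps27 from -0.027 to 0.0049, Rpl11 from -0.050 to 0.0045 and Rps28 from -0.058 to 0.0073 when 1 library was left out. In MHC class II cells against microglia, Rpl7l1 was -0.12 with total counts only. Rpl7l1 was -0.16 with every gene of any count. Rpl7l1 was -0.015 with cells of at least 3000 UMIs. Rpl7l1 was -0.0080 with cells of at most 5% mitochondrial UMIs. Rpl7l1 ran from -0.15 to 0.037 when 1 library was left out. In dividing against other microglia, Rpl38 was 0.034, Rpl39 0.014, Rpl36al 0.019 and Rpl7l1 0.038 with total counts only. Rpl38 was 0.0040 and Rpl7l1 0.024 with DESeq2. Rpl38 was 0.015, Rpl36al 0.00076 and Rpl7l1 0.019 with genes of at least 10 CPM. Rpl36al was 0.0061 with cells of at most 5% mitochondrial UMIs. Rps19bp1 was -0.12 with cells of 3000 to 6000 UMIs. Rpl7l1 ran from -0.15 to 0.16 and Rps6ka2 from -0.17 to 0.69 when 1 library was left out. Relative to the pool, in microglia between the viruses, the median of the members was 0.013 and Rpl10 0.00060 with TMM over the members. Rps4x ran from -0.043 to 0.067, Rpl5 from -0.089 to 0.030, Rps27l from -0.062 to 0.14, Rpl22l1 from -0.012 to 0.057, Rpl36a from -0.028 to 0.045 and Rpl22 from -0.0026 to 0.15 when 1 library was left out. Relative to the pool, over all kept cells between the viruses, the median of the members was 0.021 and Rpl11 0.027 with TMM over the members. Rpl11 ran from -0.044 to 0.018, Rps27l from -0.14 to 0.033, Rps4x from -0.026 to 0.080, Rpl38 from -0.0034 to 0.042, Rpl36a from -0.026 to 0.045 and Rps6kl1 from -0.63 to 0.020 when 1 library was left out. Relative to the pool, in Apoe-high cells against microglia, the median of the members was 0.020 and Rpl36al 0.0086 with TMM over the members.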
